A study of Mus musculus with 6 samples.

Results

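Expression of 10 genes of erythroid and megakaryocyte priming was followed in sorted mouse bone marrow cells. The genes were Gata1, Klf1, Nfe2, Hemgn, Car1, Car2, Pf4, Itga2b, Vwf and Gp1bb, taken by symbol from the 55401 gene IDs of the deposited table. All 10 were found there and all passed the filter on low counts, which left 16211 tested genes. Bulk RNA was measured in 3 libraries in each of 2 groups, each library from 2000 sorted cells. LSK cells were untreated wild-type Lin-Sca-1+c-Kit+ cells, the marrow fraction that holds haematopoietic stem cells and multipotent progenitors, from C57BL/6 mice aged 6 to 8 weeks. ESC-derived cells were wild-type Lin-Sca-1+c-Kit- cells sorted from the marrow of primary recipients that had received CD144+ cells, the labelled treatment being differentiation of embryonic stem cells. CD144 is an endothelial cadherin. Both groups came from bone marrow and were labelled haematopoietic, and neither the age nor the strain of the recipients is given. The groups differ in the c-Kit gate as well as in origin, so the effects of gate and origin cannot be told apart. The labels do not say that the replicates came from separate animals, so p-values measure the spread between these libraries, which may be technical.

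In haematopoiesis, priming means that multipotent cells carry low levels of transcripts of a lineage before they commit to it. GATA1, a zinc finger factor, binds GATA sequences and is required for both red cell and megakaryocyte maturation, while KLF1 binds CACC-type sequences and drives the red cell programme. NFE2 pairs with small MAF proteins at extended AP-1-like sites and is needed for platelet production. Hemgn encodes a nuclear protein of blood progenitors and erythroid cells, and Car1 and Car2 encode cytosolic carbonic anhydrases, which interconvert CO2 and bicarbonate. Pf4 and Vwf encode proteins stored in platelet alpha granules, Itga2b encodes the integrin CD41, and Gp1bb encodes a chain of the platelet receptor for von Willebrand factor.

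Promoter sequences are shown for the matches to the GATA letters, because GATA1 is itself among the genes studied. RefSeq windows of 300 bases on GRCm38.p6, from 250 bases before to 50 after a gene's start, were at hand for Gata1, Klf1, Hemgn, Pf4, Itga2b and Gp1bb, which is 6 of the 10 genes. Both strands were searched for the GATA letters, that is GATAA or GATAG with an A or a T before them. These letters were found in 4 of the 6 windows and in 29.8% of 32851 windows over all genes. The stretches below run 5′ to 3′ on the strand of each gene, with the matched letters in capitals. Positions count from the RefSeq start site. That site is 84901982 for Klf1 and 46404183 for Hemgn, which lie inside the gene coordinates given further below.
Klf1 (chr8:84901890-84901919, plus strand, match at -80 to -75): tttgcctgggtcTTATCAgggaagacagcc
Hemgn (chr4:46404179-46404208, minus strand, match at -13 to -8): acctgtgcagtgTGATAAagaaagtggaat
Hemgn (chr4:46404138-46404167, minus strand, match at 29 to 34): tgtggtctaaccAGATAAaacttttaggcg
Pf4 (chr5:90772459-90772484, plus strand, match at 37 to 42): ggcaggcagtgaAGATAAaacgtgct
Gp1bb (chr16:18622408-18622437, minus strand, match at -22 to -17): gcacctccccgcCTATCAtaagggaacaag
The Klf1 match lies outside annotated exons. Both Hemgn matches lie in an annotated Hemgn exon, the Pf4 match in a Pf4 exon and the Gp1bb match in an exon of the neighbouring gene Sept5. KLF-type letters, CCNCNCCCN, were in 4 of the 6 windows and in 49.4% of all windows. The ETS letters CAGGAAGT or CCGGAAGT were in 0 of the 6 windows and in 7.07% of all windows. These matches are descriptions of letters, and the libraries hold no measure of binding.

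Total counts ran from 41580006 to 49269286 per library. Kit, the receptor used in the gate, was counted 2081, 2171 and 2550 times across the LSK libraries, replicates in number order as throughout, and 2, 4 and 6 times across the ESC-derived ones. Ly6a, which encodes Sca-1, was present in all libraries, with 246 to 325 CPM in the LSK group, where CPM are counts scaled to TMM-corrected library size, and 507 to 917 CPM in the other. LSK replicate 2 was the middle value in 66.5% of 8302 genes with a mean of at least 10 CPM in LSK, against 17.1% and 16.3% for replicates 1 and 3. Among the 10 genes it was the middle value in 6. Whether that library is a mixture of the other LSK libraries was not tested. If so, the LSK group would hold fewer than 3 independent libraries, and its spread and all p-values given here would be understated. Many of the counts below are therefore also given without LSK replicate 2. The ESC-derived libraries carried T cell markers, with 12 of 12 listed genes higher and a summed level of 13386 to 14336 CPM against 144 to 175 CPM in LSK, although the gate is labelled lineage negative. Of the genes listed for NK and cytotoxic lymphocytes 10 of 10 were higher (10486 to 12385 against 560 to 617 CPM), and of those for neutrophils and monocytes 9 of 11 (3214 to 5338 against 524 to 549 CPM). B and plasma cell genes went the other way, with 7 of 10 lower and sums of 16018 to 20881 CPM in LSK libraries and 249 to 294 CPM in ESC-derived libraries. Without LSK replicate 2, 8 neutrophil and monocyte genes were higher and 6 B and plasma cell genes lower. The part of these cells in the results below was not tested. In bulk RNA, fewer cells of a type and less RNA per cell cannot be told apart.

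Of the 10 genes, 5 were lower in ESC-derived than in LSK cells and 0 were higher, by the edgeR quasi-likelihood test with an adjusted p threshold of 0.05. They were Car2, Nfe2, Hemgn, Pf4 and Itga2b. Over all tested genes 15.2% were lower and 14.8% were higher, 30% in either direction. The split over all genes was 2466 lower and 2395 higher, and with library totals in place of TMM it was 3057 and 1756. At an unadjusted p of 0.05, 6 of the 10 were lower, the sixth being Car1. In 8 of the 10 genes every ESC-derived library lay below every LSK library, against 27.2% of all tested genes. Klf1 and Gp1bb overlapped. Without LSK replicate 2 the same 5 genes were lower, against 7.34% of all genes, and with DESeq2 6 were lower against 20.5%, Car1 being added. With limma-voom 7 were lower against 19.3% of all genes, and without ESC-derived replicate 3 7 were lower against 13.7%, Car1 and Gata1 being added in both. The plot of CPM by library shows these levels for each gene.

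**Figure D1:**
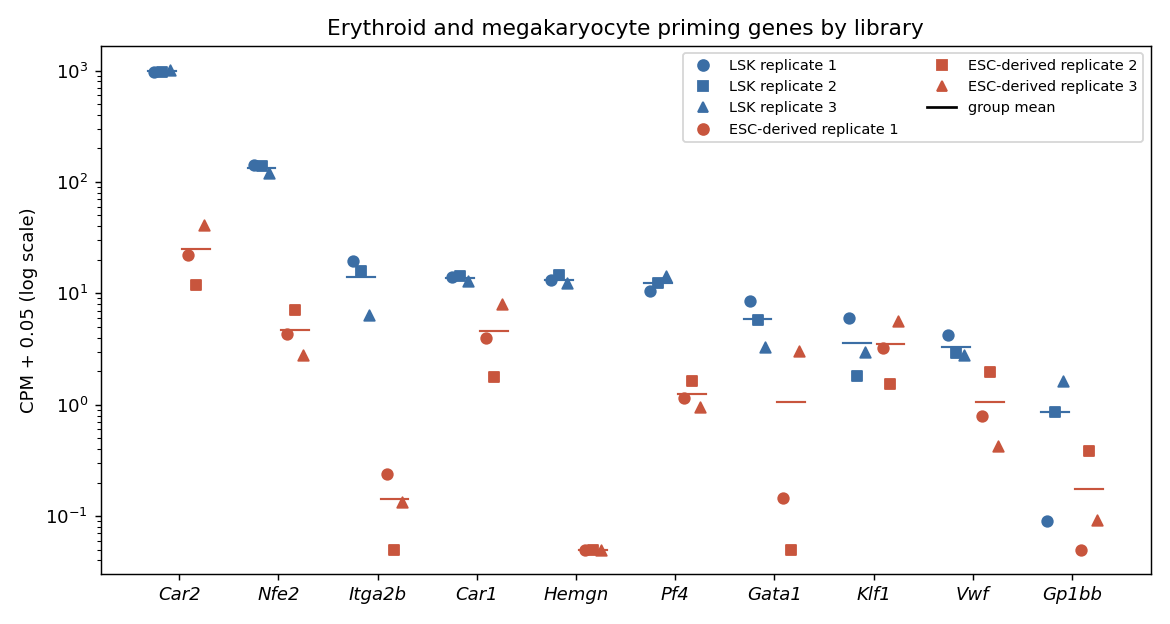
CPM of each of the 10 genes in the 6 libraries, on a log axis after adding 0.05 CPM so that values of 0 can be drawn; each symbol is 1 library and lines mark group means. Car2 stands above the other genes in every library, Hemgn is at 0 in the 3 ESC-derived libraries, and Klf1 and Gp1bb are the genes whose groups overlap.

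Among the transcription factors, Nfe2 fell and Gata1 and Klf1 did not pass the test. Nfe2 (ENSMUSG00000058794, chromosome 15, 103248212 to 103258403, minus strand, mm10) had 6929, 6346 and 5523 counts in LSK cells and 181, 295 and 130 counts in ESC-derived cells. All 3 ESC-derived libraries were far below the lowest LSK library. Its LSK mean was 134 ± 12.1 CPM and its ESC-derived mean 4.67 ± 2.13 CPM (SD over n = 3 libraries, as for all means given). The log2 fold change was -4.84 ± 0.37 (SE, adjusted p = 0.000234, edgeR quasi-likelihood test).

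Gata1 (ENSMUSG00000031162, chromosome X, 7959260 to 7978071, minus strand) had 414, 259 and 148 counts in LSK cells and 4, 0 and 140 counts in ESC-derived cells. The groups did not overlap in CPM, but ESC-derived replicate 3, at 2.96 CPM, lay close to LSK replicate 3, at 3.22 CPM. The means were 5.81 ± 2.66 and 1.02 ± 1.68 CPM, and the log2 fold change of -2.51 ± 1.71 did not pass (adjusted p = 0.331, edgeR quasi-likelihood test). Its 95% interval, -6.58 to 1.57, includes both a large fall and a rise. Without ESC-derived replicate 3 the log2 fold change was -6.85 (adjusted p = 0.0215, edgeR), so the value depends strongly on 1 library. It also depends on the method. With all libraries kept it was -2.54 in DESeq2 (adjusted p = 0.229) and -5.05 in limma-voom (adjusted p = 0.0483). In edgeR with a replicate block it was -5.50 (adjusted p = 0.214).

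Klf1 (ENSMUSG00000054191, chromosome 8, 84901928 to 84905291, plus strand) had 286, 81 and 135 counts in LSK cells and 135, 63 and 264 counts in ESC-derived cells. The libraries of the groups were interleaved, with the highest at LSK replicate 1 and ESC-derived replicate 3. Its means were 3.54 ± 2.13 CPM and 3.42 ± 2.05 CPM. The log2 fold change was -0.05 ± 0.74, with a 95% interval from -1.80 to 1.71 (adjusted p = 0.972, edgeR). This interval includes changes of about 3-fold in either direction. It is not adjusted for the number of genes tested, so a larger change could also miss the adjusted threshold. The sign of the log2 fold change turned positive when LSK replicate 1 was left out, and also when the first or the second ESC-derived library was.

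Hemgn (ENSMUSG00000028332, chromosome 4, 46393989 to 46413506, minus strand) had 631, 663 and 562 counts in LSK cells and 0 counts in each ESC-derived library. Its LSK mean was 13.3 ± 1.16 CPM. Against a floor of 12 counts over the ESC-derived group, Hemgn was at least 145-fold lower there (adjusted p = 0.000601, edgeR quasi-likelihood test). The floor stands for 3 fragments at 4 counts each and covers counting error only.

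The carbonic anhydrase genes lie 77904 bases apart on chromosome 3, on opposite strands. Car2 (ENSMUSG00000027562, 14886273 to 14900770, plus strand) had 47395, 44329 and 46517 counts in LSK cells and 922, 499 and 1959 counts in ESC-derived cells. Every ESC-derived library was far below LSK, and ESC-derived replicate 3 was the highest of the 3. The means were 987 ± 22.8 and 25.0 ± 15.0 CPM, a log2 fold change of -5.30 ± 0.48, or 39.4-fold (adjusted p = 0.000446, edgeR). Car2 made up 81.7 to 85.2% of the summed CPM of the 10 genes in LSK libraries and 45.7 to 66.6% in ESC-derived libraries.

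Car1 (ENSMUSG00000027556, 14766216 to 14808368, minus strand), the carbonic anhydrase typical of red cells, had 676, 654 and 588 counts in LSK cells and 166, 73 and 380 counts in ESC-derived cells. The groups did not overlap, and the ESC-derived order, with replicate 3 highest and replicate 2 lowest, was that of Car2. The means were 13.7 ± 0.788 and 4.57 ± 3.20 CPM. The log2 fold change of -1.58 ± 0.57 missed the threshold (adjusted p = 0.0804, edgeR, 95% interval -2.94 to -0.23). It passed in DESeq2 (adjusted p = 0.0189), in limma-voom (0.0262) and in edgeR without ESC-derived replicate 3 (-2.27, adjusted p = 0.022). Car3 and Car13, which lie in the same cluster and were chosen after their values were seen, had 713, 468 and 296 and 199, 94 and 157 counts in LSK cells. In ESC-derived cells they had 98, 0 and 28 and 0, 4 and 6 counts.

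The megakaryocyte members Itga2b and Pf4 fell, and Vwf and Gp1bb did not pass. Itga2b (ENSMUSG00000034664, chromosome 11, 102453297 to 102470122, minus strand) had 940, 721 and 293 counts in LSK cells and 8, 0 and 4 counts in ESC-derived cells. All 3 ESC-derived libraries were near 0. The ratio of the summed levels, LSK over ESC-derived, was 153 with an exact 95% counting interval of 52.0 to 744, which leaves out the spread between libraries. The fitted log2 fold change of Itga2b was -7.20, with a 95% interval from -9.90 to -4.50 (adjusted p = 0.00428, edgeR quasi-likelihood test). Its LSK mean of 13.8 ± 6.71 CPM carried a wide spread, with replicate 1 3.04 times replicate 3.

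Pf4 (ENSMUSG00000029373, chromosome 5, 90772435 to 90773383, plus strand), a chemokine of platelet granules, had 506, 558 and 652 counts in LSK cells and 46, 67 and 43 counts in ESC-derived cells. Its residue in the ESC-derived group was small but present in all 3 libraries. The means were 12.3 ± 1.88 and 1.19 ± 0.348 CPM, a log2 fold change of -3.36 ± 0.44 (adjusted p = 0.00187, edgeR).

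Vwf (ENSMUSG00000001930, chromosome 6, 125546774 to 125686679, plus strand), a clotting protein of megakaryocytes and endothelium, had 203, 131 and 125 counts in LSK cells and 31, 82 and 18 counts in ESC-derived cells. The groups did not overlap, and ESC-derived replicate 2 was the highest of its group. The means were 3.26 ± 0.807 and 1.02 ± 0.815 CPM, and the log2 fold change was -1.68 ± 0.81 (adjusted p = 0.176, edgeR, 95% interval -3.61 to 0.25). Of 9 tested endothelial list genes, Vwf included, 4 fell and 0 rose, and 2 fell without LSK replicate 2. Over all tested genes the shares that fell in those 2 fits were 15.2% and 7.34%. The 10 listed genes summed to 170 to 192 CPM in LSK libraries and 40.7 to 62.1 CPM in ESC-derived libraries. Cdh5, the defining gene of CD144, had 8 counts in LSK replicate 3 and 0 in the other libraries. The part of endothelial cells in the Vwf values was not tested.

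Gp1bb (ENSMUSG00000050761, chromosome 16, 18620317 to 18622403, minus strand) had 2, 37 and 72 counts in LSK cells and 0, 14 and 2 counts in ESC-derived cells. The groups overlapped, since LSK replicate 1 lay within the range of the ESC-derived libraries. The log2 fold change was -2.67 ± 1.76 (adjusted p = 0.313, edgeR, 95% interval -6.85 to 1.51). Its values are uncertain, because 1902 of its 2087 exon bases are shared with Sept5 and 867 with Gm49601 on the same strand. Summed with both of these genes, a choice made after seeing the data, the log2 fold change was -1.34 (adjusted p = 0.425, edgeR). The plot of fitted changes sets the intervals of 9 genes side by side.

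**Figure D2:**
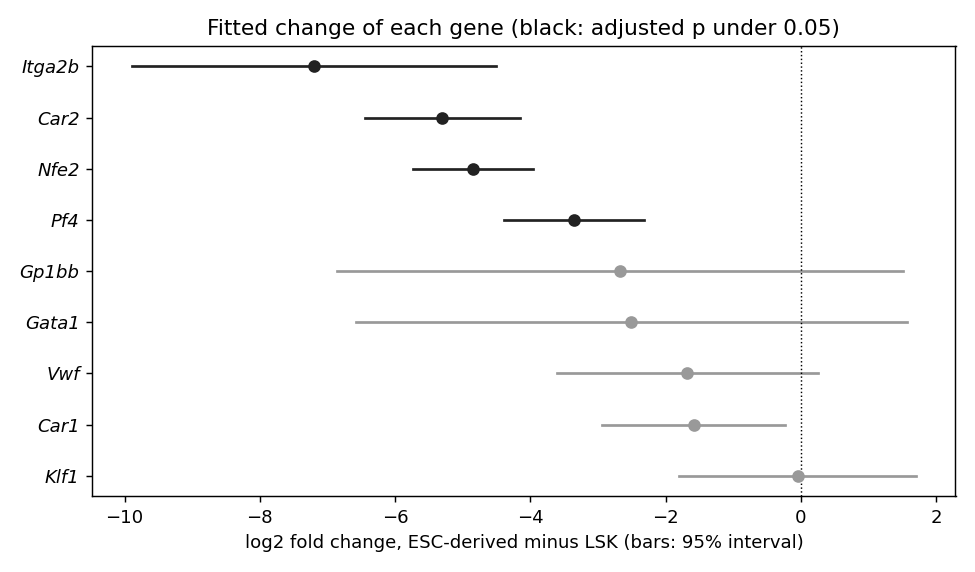
Fitted log2 fold change, ESC-derived minus LSK, of 9 of the 10 genes with 95% intervals from edgeR; black marks an adjusted p under 0.05 and Hemgn is left out because it has 0 counts in ESC-derived cells. Nfe2, Car2 and Pf4 have short intervals far below 0, Itga2b a wider one, and the intervals of Gata1, Klf1, Vwf and Gp1bb include 0.

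Levels of different genes were compared as CPM per kilobase of the longest coding transcript. In LSK cells Car2 stood highest at 552 CPM per kb, at the 98.8th percentile of 16198 genes with a length, followed by Nfe2 at 71.4 CPM per kb, at the 91.6th. Pf4 at 20.9 and Car1 at 11.5 CPM per kb came next, and the ranges of these 4 genes over the 3 libraries did not overlap. Hemgn at 5.61, Itga2b at 4.03, Gata1 at 3.05 and Klf1 at 2.31 CPM per kb followed, and no neighbours among these 4 were separated beyond their ranges. Gp1bb at 0.387 and Vwf at 0.369 CPM per kb were lowest and not separated. In ESC-derived cells the order of mean levels was Car2 at 14.0, Car1 at 3.82, Nfe2 at 2.49, Klf1 at 2.24 and Pf4 at 2.03 CPM per kb. Gata1 at 0.535, Vwf at 0.115, Gp1bb at 0.0596, Itga2b at 0.0266 and Hemgn at 0 completed it. No neighbours in the ESC-derived order were separated.

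Within the LSK group the 10 genes differed in how steady they were. The coefficient of variation over 3 libraries was 2.31% for Car2, 5.75% for Car1, 8.73% for Hemgn, 9.02% for Nfe2, 15.3% for Pf4 and 24.8% for Vwf. It was 45.8% for Gata1, 48.5% for Itga2b, 60.1% for Klf1 and 94.7% for Gp1bb. The fewest LSK counts were those of Gp1bb, Vwf and Klf1, with totals of 111, 459 and 502. Gata1, Itga2b, Vwf and Nfe2 were highest in LSK replicate 1 and lowest in replicate 3. Gp9, the partner of GP1BB in its receptor, had the same order at 975, 653 and 380 counts. The basophil protease genes Mcpt8, at 4233, 2688 and 1319 counts, and Prss34, at 3610, 1846 and 157 counts, were also highest in replicate 1 and lowest in replicate 3. Of the 9 listed genes of basophils, mast cells and eosinophils, 7 had counts in LSK cells, and 4 of these were highest in replicate 1 and lowest in replicate 3. Gata2 and Prg2 were highest in replicate 3 instead. LSK replicate 2 was the middle value in 66.5% of 8302 genes. The share of all genes highest in replicate 1 and lowest in replicate 3 is not given here. The list summed to 438, 372 and 340 CPM in LSK replicates 1, 2 and 3. Their part in the spread of Gata1 and Itga2b was not tested. Pf4 and Gp1bb had the opposite order, lowest in replicate 1.

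**Figure D3:**
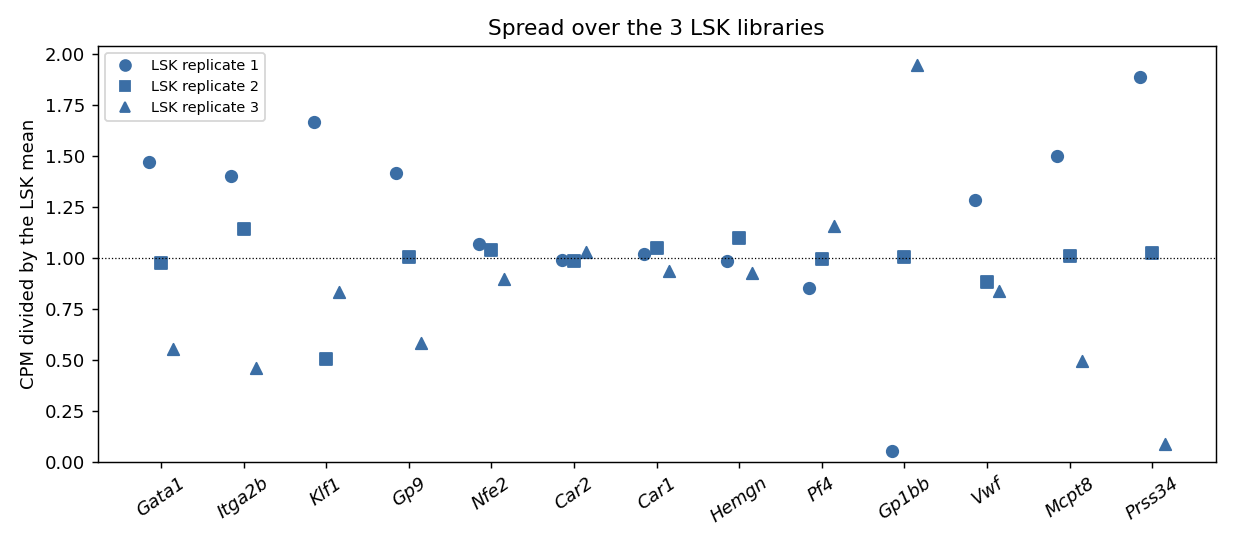
CPM in each LSK library divided by the mean of the 3 LSK libraries, for the 10 genes and for Gp9, Mcpt8 and Prss34, which were chosen after their values were seen. Gata1 runs from 1.47 times the mean in replicate 1 to 0.555 times in replicate 3, and Car2 stays between 0.983 and 1.03.

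Within the ESC-derived group the remaining transcripts fell into different libraries. Replicate 3 held 96.9% of the group's summed CPM of Gata1, 54.3% of Klf1, 58.6% of Car1 and 55.1% of Car2. The red cell surface gene Rhd had 0, 9 and 335 counts in ESC-derived replicates 1 to 3, Icam4 had 9, 0 and 73, Epb42, an erythrocyte membrane skeleton gene, had 0, 0 and 96, and Rhag had 0, 0 and 65. Replicate 2 held 63.4% of Vwf, 88.7% of Gp1bb, 49.7% of Nfe2 and 44.1% of Pf4. The wider lists were mixed. Of 13 megakaryocyte surface receptor genes with counts in ESC-derived cells, 5, 6 and 2 were highest in replicates 1, 2 and 3, and of 12 granule genes 3, 8 and 1. Of 17 erythroid membrane and receptor genes with counts there, 3, 5 and 9 were. The other erythroid lists were highest most often in replicate 2, with 3, 7 and 6 of 16 haem and iron genes and 1, 4 and 3 of 8 globin and carbonic anhydrase genes. Of 13 stem cell genes 0, 3 and 10 were highest in replicates 1, 2 and 3. A highest value in replicate 3 was thus not limited to red cell genes. The share of all tested genes highest in each ESC-derived library is not given here, so these counts have no background. The globin gene Hba-a1, with 7078, 20095 and 2458 counts, and the eosinophil granule genes Epx, with 176, 4967 and 457 counts, and Prg2, with 2129, 48227 and 6461 counts, were highest in replicate 2 as well. Hba-a1 has a near-identical copy, Hba-a2, so its counts are uncertain. These other genes were chosen after their values were seen, and the part of red cells or granulocytes in the members' values was not tested.

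**Figure D4:**
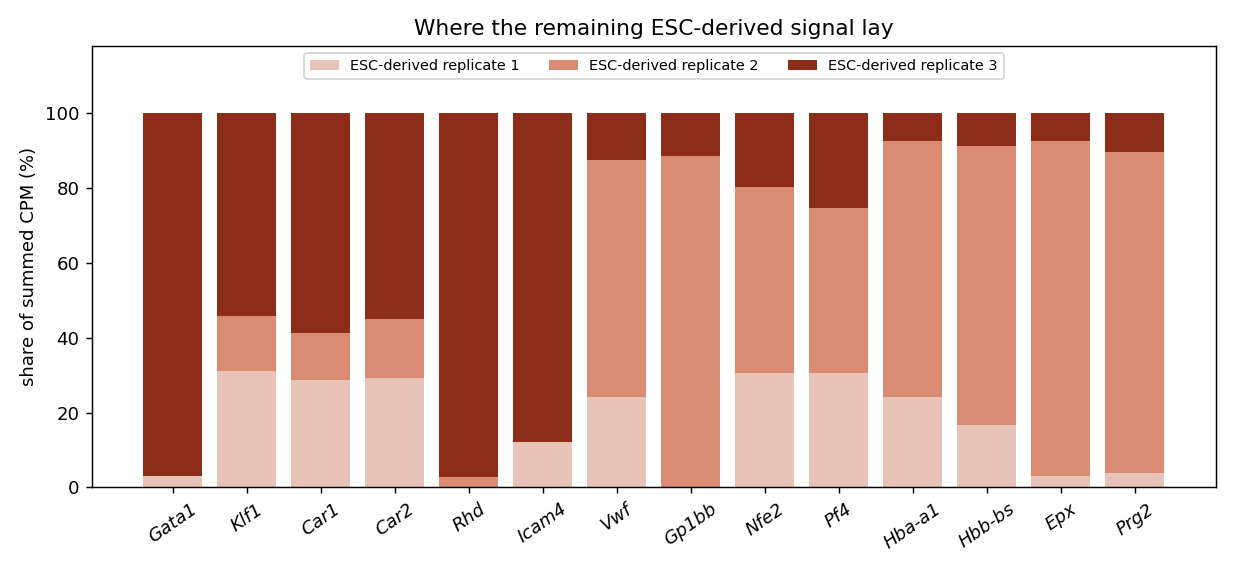
Share of each gene's summed ESC-derived CPM found in each of the 3 ESC-derived libraries, for the members with counts other than Itga2b and for 6 other genes chosen after their values were seen. Replicate 3 holds most of Gata1, Klf1, Car1, Car2, Rhd and Icam4, while replicate 2 holds the largest share of Vwf, Gp1bb, Nfe2, Pf4, Hba-a1, Hbb-bs, Epx and Prg2.

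The wider set of transcription factors of these lineages held many genes that were low in ESC-derived cells. Of 22 tested, the 4 factors above included, 9 fell, 1 rose and 12 did not pass, with a median log2 fold change of -2.37 against -0.07 over all tested genes. Without the 4 members, 7 of 18 fell and the median was -1.42. In the fit without LSK replicate 2, 8 factors fell, or 6 when members are not counted. Over all tested genes 15.2% fell, and 7.34% without LSK replicate 2. Lyl1, a basic helix-loop-helix factor, fell by 5.65 ± 0.18 on the log2 scale, and Mef2c, a factor of megakaryocyte and lymphoid progenitors, fell by 7.54 ± 0.31. Klf3, which KLF1 activates and which represses many of the same sites, rose by 1.49 ± 0.18 (adjusted p = 0.00147, edgeR). The other genes of this paragraph were chosen after their values were seen. Gata2, which precedes GATA1 in progenitors, had 10120, 9690 and 11214 counts in LSK cells and 0, 136 and 8 in ESC-derived cells, and fell by 7.63 ± 1.39. Lmo2, the bridging protein of the GATA and TAL1 complex, fell by 7.53 ± 0.70. Tal1 had 647, 224 and 229 counts against 0, 21 and 0 and missed the threshold (adjusted p = 0.0564, edgeR). It passed in DESeq2 (0.00254), in limma-voom (0.0162), in edgeR with library totals, the stricter filter or values divided by 4, and without ESC-derived replicate 2, which held all of its ESC-derived counts (adjusted p = 0.00788). The complex members Ldb1 (log2 fold change 0.06 ± 0.18), Zfpm1, the GATA1 cofactor FOG1 (0.20 ± 0.30), and Fli1 (0.32 ± 0.20) did not pass. Under library totals, which moved the median of all genes by -0.25, Zfpm1 and Ldb1 turned negative. Spi1, the myeloid factor PU.1 that opposes GATA1, also fell, with a log2 fold change of -5.57 ± 0.55.

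Of 47 listed erythroid genes, 37 were tested, and 13 fell, 2 rose and 22 did not pass, with a median log2 fold change of -0.99. Without the members, 12 of 35 fell and the median was -0.94. The count that fell was 8, 5 and 8 without LSK replicates 1, 2 and 3, 9 without ESC-derived replicate 1, and 8 with a replicate block. Over all tested genes 15.2% fell and 14.8% rose in the main fit. The share of all genes that fell was 11.1%, 7.34% and 11.4% without LSK replicates 1, 2 and 3. It was 13.2% without ESC-derived replicate 1 and 9.18% with the block. Among haem and iron genes 7 of 17 fell and 2 rose, and 3, 3 and 4 fell without LSK replicates 1, 2 and 3, and 4 with the replicate block. Tfr2, the second transferrin receptor, had 1448, 1829 and 2483 counts in LSK cells and 0 in ESC-derived cells, at least 451-fold lower. The ferritin chains Fth1 and Ftl1 fell by 1.28 ± 0.13 and 0.94 ± 0.16 on the log2 scale, and Cpox, a haem synthesis enzyme, rose by 1.17 ± 0.19. Alas2, the erythroid enzyme that starts haem synthesis, had 0 counts in all 6 libraries.

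Among globin and carbonic anhydrase genes 3 of 8 fell, Car2, Blvrb and Prdx2, and 0 rose, and 0 of the 4 adult haemoglobin genes passed in edgeR. These are near-identical copies in pairs and their counts are uncertain. Hbb-bt had a log2 fold change of -1.79 (adjusted p = 0.0549, edgeR) and passed as lower in DESeq2 (0.00457), in limma-voom (0.00949), and in edgeR with library totals, the stricter filter, values divided by 4, the replicate block or ESC-derived replicate 2 left out. Without ESC-derived replicate 2 Hbb-bs also passed as lower (-1.36, adjusted p = 0.0362, edgeR), and without ESC-derived replicate 3 Hba-a1 passed as higher (1.64, adjusted p = 0.0400, edgeR). Without LSK replicate 2, Car2 passed, and Blvrb and Prdx2 did not. Blvrb also missed the threshold with the replicate block. Prdx2 also missed it with the block, with no filter on low counts, without LSK replicate 1 or 3, and without ESC-derived replicate 1 or 2. Among red cell membrane and receptor genes 3 of 12 tested fell and 0 rose. Those were Aqp9 (log2 fold change -3.21 ± 0.59), Gypc (-1.10 ± 0.23) and Sphk1, whose ratio of summed levels was 23.8 (95% counting interval 7.87 to 250). Without LSK replicate 2, 1 of these calls remained, that of Aqp9, and 7.34% of all tested genes fell. The call of Sphk1 was also lost without LSK replicate 1 or 3 and without ESC-derived replicate 1 or 2. Sphk1 missed the threshold as well with no filter on low counts and with the replicate block. Ahsp was not analysed here.

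Of 47 listed megakaryocyte genes, 41 were tested, and 16 fell, 7 rose and 18 did not pass, with a median of -1.11. Without the members, 14 of 37 fell and the median was -0.46. Without LSK replicate 2 the count that fell was 10. Over all tested genes 15.2% fell and 14.8% rose, and 7.34% fell without LSK replicate 2. Among surface receptors 6 of 14 fell and 1 rose, and 4 fell without LSK replicate 2. Gp9 had 0 counts in ESC-derived cells, at least 157-fold lower (adjusted p = 0.00132, edgeR), and F2rl2, a thrombin receptor, rose by 4.64 ± 0.56. Among granule genes 6 of 14 fell and 0 rose, and 4 fell without LSK replicate 2. Mmrn1, a multimeric alpha granule protein, was at least 175-fold lower. F13a1, a clotting factor chain, had a log2 fold change of -4.68 ± 0.77.

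Among cytoskeleton and signalling genes 4 of 13 fell and 6 rose, and the median was 0.12. With library totals 5 fell and 5 rose, and without LSK replicate 2 or 3 the number that fell was 2. Of all tested genes, 15.2% fell and 14.8% rose in the main fit, and 18.9% and 10.8% with library totals. The share of all genes that fell was 7.34% without LSK replicate 2 and 11.4% without LSK replicate 3. Tbxas1, thromboxane synthase, fell by 6.19 ± 0.36 and Gng11, a G protein subunit, by 3.68 ± 0.68 on the log2 scale. Bin2, Rap1b and Flna rose, by 1.58 ± 0.11, 2.16 ± 0.20 and 1.30 ± 0.12. RAP1B is a small GTPase and FLNA an actin crosslinker, and both are also expressed in lymphocytes. The part of lymphocytes in these rises was not tested. The 5 called members above count among these lists, so the lists are not separate evidence for them. The list plot shows every tested gene.

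**Figure D5:**
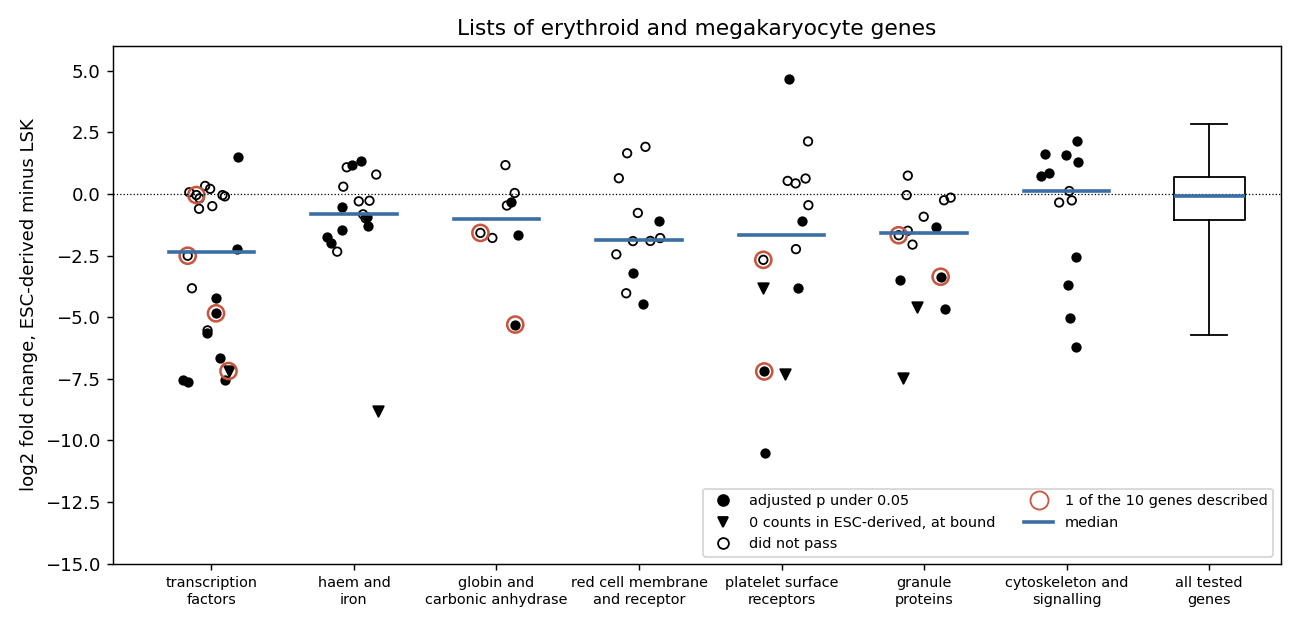
Log2 fold change, ESC-derived minus LSK, of each tested gene in the lists of erythroid and megakaryocyte genes; filled symbols have an adjusted p under 0.05 (edgeR), and triangles are genes with 0 counts in ESC-derived cells, drawn at their bound. Most filled symbols of the transcription factor, surface receptor and granule lists lie below 0, and the cytoskeleton and signalling list holds 4 below and 6 above.

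The genes whose log2(CPM + 1) followed Gata1 most closely over the 6 libraries were Arhgap11a, Dgke, Txndc11, Cdk2ap1 and Rnf10, with Pearson's r from 0.996 to 0.999. Among those closest to Car2 were Ipo11, Selenbp1, Glo1 and Hjurp, with r of at least 0.997. The 6 points fall into the same pair of groups for all of these genes and share library and depth, so the values describe the pattern only.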

How the data were processed

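The labels' protocols give cDNA synthesis with the SMART-Seq v4 kit, Nextera XT libraries and an Illumina instrument. Per the submitters' processing notes, HISAT, StringTie and mm10 were used. Their settings, versions and annotation are not stated in those notes. The authors deposited estimated counts, 1 row per Ensembl gene, as whole numbers without normalization. Of the values from 1 to 20, 40.1 to 47.2% per library were divisible by 4, so a fragment was often worth about 4 counts. The kit does not mark strand. The header holds the 6 column names in 1 field, and columns were assigned from the order of names there, which the Kit counts go with. Of 55401 IDs, 260 were missing from GENCODE M21, which annotates the same build and gave symbols and positions for the other 55141.

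Counts were used as deposited, filtered with filterByExpr, scaled with TMM and fitted without a replicate block in edgeR 4.0.16 under R 4.3.3. The robust quasi-likelihood test was two-sided, with Benjamini-Hochberg adjustment over all tested genes and a threshold of 0.05. Genes at or under 12 counts in a group have a ratio of sums with an exact 95% interval on counts divided by 4, or a bound. The intervals of these ratios cover counting error only, and the reads carry no molecular identifiers. Named genes were the 10 members and up to 3 lower and 3 higher genes per list by adjusted p, and any other gene was picked with its values in view, as the text says. The members, lists and tests were chosen with earlier results of these data known. Alternatives were DESeq2 (1.42.0), limma-voom (limma 3.58.1), other scalings and filters, values divided by 4, a replicate block and each library left out. Counts were also simulated for this comparison (15476 genes, 50 changed per fold size). The share recovered was 6% at 2-fold, 34% at 4-fold, 42% at 8-fold and 60% at 16-fold, and 1 unchanged gene was called. A far smaller share of genes was changed there than the 30% called in the real data. The adjusted threshold is stricter in such a setting, so these shares do not measure power in the real comparison. Results of some listed genes are not reported here.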

Additional observations from a re-analysis of the deposited data

How the results depend on the processing

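The 5 lower members, Car2, Nfe2, Hemgn, Pf4 and Itga2b, passed in each of the 14 other settings listed under the processing. In limma-voom the log2 fold change of Gata1 was -5.05 (adjusted p = 0.0483). Over its alternatives the adjusted p of Gata1 ran from 0.0215 to 0.531, that of Car1 from 0.0189 to 0.194 and that of Vwf from 0.0524 to 0.367. Leaving out 1 library at a time moved the log2 fold change of Klf1 between -0.59 and 0.54. It was positive at 0.54 without LSK replicate 1, 0.00049 without ESC-derived replicate 1 and 0.32 without ESC-derived replicate 2. Such fits gave 2716 to 4603 called genes in all, 5 to 13 lower genes of the erythroid lists and 10 to 14 of the megakaryocyte lists. The lowest of each, 2716, 5 and 10, came without LSK replicate 2.

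With the replicate number as a block, 3220 genes passed and 8 erythroid list genes were lower. Correlations of same-numbered deviations were 0.0144, 0.0377 and 0.0168, all under 0.1, so the numbers were not taken to pair the samples, although each library correlated best with its own number. With library totals only, 63.5% of called genes were lower against 50.7% with TMM. Totals at or under 12 counts limit what can be said of the ESC-derived levels of Itga2b and Hemgn.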
